A study of Homo sapiens with 6 samples.

Results

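The 14-3-3 proteins are a family of small acidic adaptor proteins that act as dimers and bind other proteins at phosphorylated serine or threonine. A human gene encodes each isoform, namely YWHAB (beta), YWHAE (epsilon), YWHAG (gamma), YWHAH (eta), YWHAQ (theta), YWHAZ (zeta) and SFN (sigma, also called stratifin). They hold clients such as the CDC25 phosphatases, the pro-apoptotic protein BAD, the FOXO transcription factors and the coactivators YAP1 and TAZ in the cytoplasm or in an inactive state. Most isoforms pair freely with one another, while SFN mainly pairs with itself and is best known as a p53 target and as an isoform of epithelial cells.

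Probe sets were taken as family members where the annotation gave them exactly 1 gene symbol and that symbol was 1 of the 7 above. This gave 8 probe sets of 33297 on the array, 1 for each gene and a second for YWHAE, for 7 of 18417 genes named, and 0 probe sets with several symbols held a member. The family was chosen by the log2 difference of YWHAH between cells given siRNA against H3.X and H3.Y and cells given luciferase siRNA, so the values of YWHAH are given below as a description with no test. The other members entered by name and not by their values.

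Transcripts were measured in U2OS, an established human osteosarcoma line grown in DMEM with fetal calf serum, after oligofectamine transfection of siRNA on 2 occasions and harvest 4 days after transfection. There were 3 groups of 2 arrays. The first received siRNA to both H3.X and H3.Y (the combined knockdown), the second siRNA to H3.Y alone, and the third, the control, siRNA to luciferase, which these cells lack. H3.X and H3.Y are histone H3 variants found in primates. The siRNA sequences, and whether the combined knockdown used 1 siRNA or a pool, are not in the labels. The arrays are labelled as biological replicates with no word on separate cultures, so a p-value here speaks only to array-to-array spread, which may be technical. The knockdown itself was not read here, since 0 probe sets carried the symbol H3Y1 or H3Y2, the genes of H3.Y and H3.X. Arrays of a group correlated over all probe sets at r of 0.986 to 0.992, arrays of different groups at 0.978 to 0.987, and the small number of arrays limits the precision of every value. Of 6 osteoblast and mesenchymal markers, VIM ranged over 10.69 to 10.95 log2 units on the 6 arrays, SPARC over 9.94 to 11.55, COL1A1 over 8.33 to 10.73, ALPL over 5.72 to 6.57, RUNX2 over 5.05 to 5.89 and COL1A2 over 4.78 to 5.38. Of 6 measured blood and neuronal markers, PTPRC ranged over 1.89 to 2.29, CD3E over 3.30 to 3.68, CD14 over 4.18 to 4.74, SYT1 over 3.66 to 4.08, SNAP25 over 5.12 to 5.68 and RBFOX3 over 5.87 to 6.12. Levels of different probe sets have no common scale, so these ranges do not order the markers. All values are of total RNA from whole cultures, so fewer cells of a type and less RNA per cell cannot be told apart.

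The promoters of the 4 members whose levels moved most between groups are shown, since these genes are the ones the comparisons below turn on. Each is the 250 bases before the RefSeq start site on the strand of the gene, from RefSeq sequence of GRCh38.p14, and 6 of the 7 members matched the promoter table. YWHAH lies at chr22:31944285-31944534 on the plus strand, YWHAE at chr17:1400223-1400472 on the minus strand, YWHAQ at chr2:9630998-9631247 on the minus strand and SFN at chr1:26862899-26863148 on the plus strand. Capitals mark matches, on either strand, to the GC box, the CCAAT box, the TATA box, the cyclic AMP response element and the E-box, whose letters are given after the sequences.
YWHAH: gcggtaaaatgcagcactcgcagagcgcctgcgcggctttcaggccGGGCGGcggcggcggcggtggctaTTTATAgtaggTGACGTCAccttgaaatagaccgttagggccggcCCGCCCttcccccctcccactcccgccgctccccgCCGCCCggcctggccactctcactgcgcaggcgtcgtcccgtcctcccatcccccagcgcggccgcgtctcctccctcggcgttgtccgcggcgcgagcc
YWHAE: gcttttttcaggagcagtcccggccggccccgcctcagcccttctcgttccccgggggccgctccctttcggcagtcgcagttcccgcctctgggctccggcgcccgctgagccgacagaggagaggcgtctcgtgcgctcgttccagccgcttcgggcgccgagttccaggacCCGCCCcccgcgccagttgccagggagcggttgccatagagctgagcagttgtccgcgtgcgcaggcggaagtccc
YWHAQ: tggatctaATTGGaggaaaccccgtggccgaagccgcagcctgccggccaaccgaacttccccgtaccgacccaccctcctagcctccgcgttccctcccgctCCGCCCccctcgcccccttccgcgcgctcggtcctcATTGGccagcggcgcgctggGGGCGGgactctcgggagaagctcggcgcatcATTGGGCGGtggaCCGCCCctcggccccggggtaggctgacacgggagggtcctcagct
SFN: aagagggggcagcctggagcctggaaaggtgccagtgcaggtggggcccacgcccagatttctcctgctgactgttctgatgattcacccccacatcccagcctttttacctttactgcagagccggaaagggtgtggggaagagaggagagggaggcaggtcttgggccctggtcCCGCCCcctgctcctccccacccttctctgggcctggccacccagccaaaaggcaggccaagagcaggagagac
The YWHAH window held 3 GC boxes (GGGCGG, present in 42.6% of 35116 promoter windows of the same length). It also held 1 TATA box (TATAAA, in 10.7% of windows) on the opposite strand, at 180 bases before the start site. The cyclic AMP response element (TGACGTCA, in 1.65% of windows) matched once, at 169 bases before the start site. The YWHAQ window held 4 GC boxes and, on the opposite strand, 3 CCAAT boxes (in 32% of windows), 1 of which overlapped a GC box. The YWHAE and SFN windows held 1 GC box each and no match to the other motifs. The E-box (CACGTG, in 6.34% of windows) was in none of the 4 sequences. The GC content was 72% for YWHAH, 71.2% for YWHAE, 71.6% for YWHAQ and 62.8% for SFN, against a median of 58% over all windows. The windows of YWHAB and YWHAG, not shown, had 70.4% and 71.6% GC and 4 GC boxes each. High GC content and GC boxes were therefore not particular to the members that moved. These matches are letters in the sequence, and binding was not measured.

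YWHAH was low in the combined knockdown and not in the H3.Y knockdown. Its log2 expression value was 6.48 and 6.54 in the combined knockdown, 8.31 and 8.55 after H3.Y siRNA, and 8.41 and 8.60 after luciferase siRNA. Both combined knockdown arrays lay below all 4 others, and the arrays of H3.Y siRNA and luciferase siRNA overlapped. The combined knockdown was 3.99-fold below luciferase siRNA (log2 -2.00 ± 0.15, SE of the moderated fit, n = 2 arrays per group) and 3.79-fold below H3.Y siRNA (log2 -1.92 ± 0.15). The H3.Y knockdown differed from luciferase siRNA by log2 -0.07 ± 0.15, with a 95% interval of -0.43 to 0.29. The difference between the combined knockdown and luciferase siRNA was number 16 from the lowest among 33297 probe sets, which is a description, since YWHAH was chosen for it.

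YWHAE, a highly conserved isoform, had its low values after H3.Y siRNA and not in the combined knockdown. Probe set 8011011 read 10.27 and 10.27 log2 units in the combined knockdown, 9.31 and 9.11 after H3.Y siRNA, and 10.33 and 10.36 after luciferase siRNA. Its second probe set, 8055476, read 10.93 and 10.91 in the combined knockdown, 10.04 and 9.78 after H3.Y siRNA, and 10.88 and 10.98 after luciferase siRNA. On both probe sets the H3.Y arrays lay below all 4 others. YWHAE was 2.2-fold lower after H3.Y siRNA than after luciferase siRNA on the first probe set (log2 -1.14 ± 0.14, limma adjusted p = 0.043), while the second gave log2 -1.02 ± 0.14 and missed the threshold of 0.05 (adjusted p = 0.064). The call on the first probe set was lost with only the 4 arrays compared (adjusted p = 0.15) and without any 1 array other than H3.Y replicate 2, at adjusted p of 0.11 to 0.32, with log2 differences between -1.24 and -1.03 over all 6 omissions. The combined knockdown exceeded H3.Y siRNA by log2 1.06 ± 0.14 on the first probe set (2.09-fold, adjusted p = 0.016) and by 1.01 ± 0.14 on the second (2.02-fold, adjusted p = 0.02). Without either combined knockdown array these 2 calls were lost, and the second was also lost without either luciferase array. With only the 4 arrays compared, the family count between the knockdowns, 4 with YWHAH, was 3. YWHAE has processed pseudogene copies, and whether either probe set also reads them was not tested, so they may not be separate readings.

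**Figure D1:**
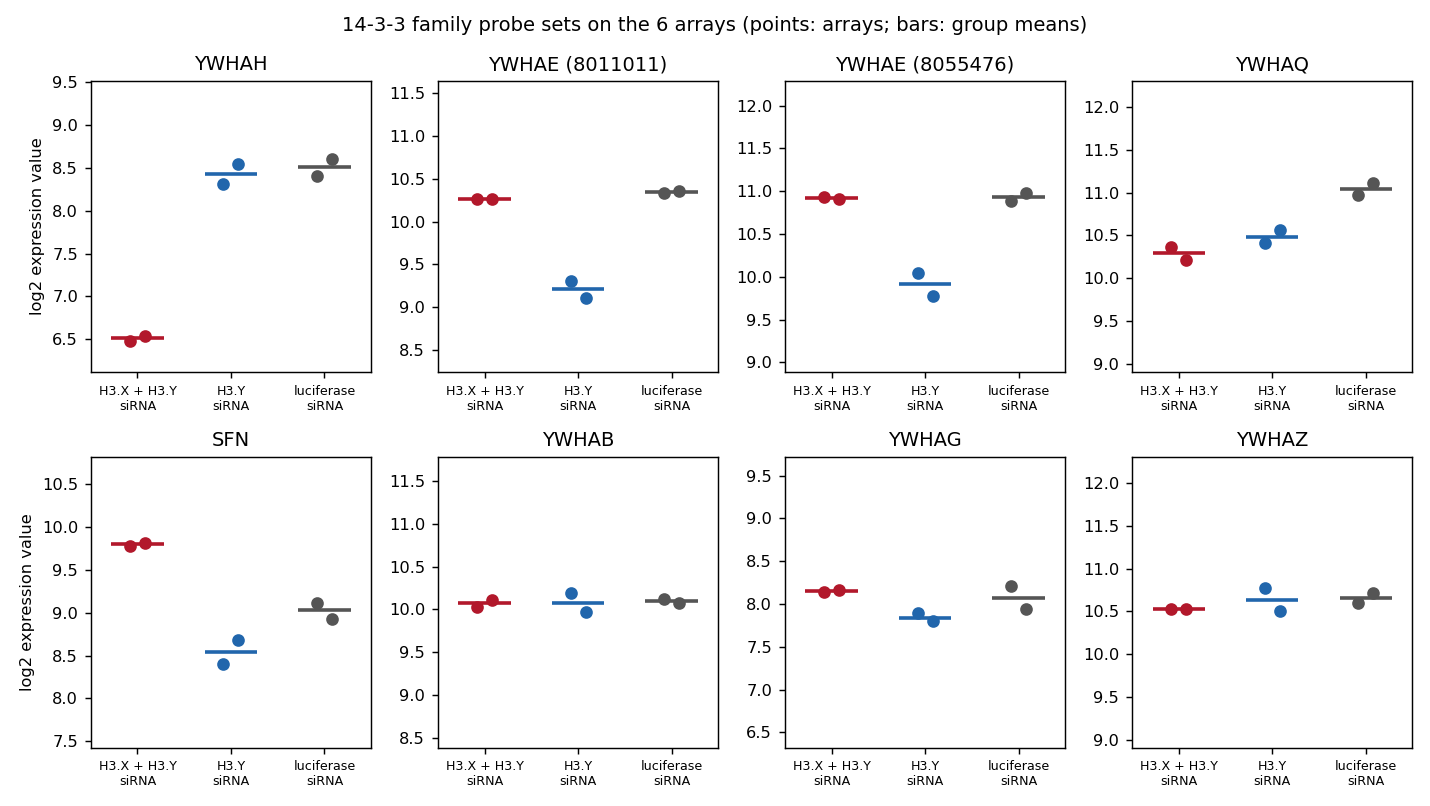
Log2 expression values (vertical axis, the same span of log2 units in every panel) of the 8 family probe sets on the 6 arrays, by siRNA group (horizontal axis); points are arrays and bars are group means. YWHAH sits at 6.48 and 6.54 in the combined knockdown, below its other 4 arrays, and YWHAE sits lowest after H3.Y siRNA on both probe sets.

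YWHAQ had lower values in both knockdowns than after luciferase siRNA, and neither difference was called. It read 10.36 and 10.21 log2 units in the combined knockdown, 10.41 and 10.56 after H3.Y siRNA, and 10.97 and 11.11 after luciferase siRNA. All 4 knockdown arrays lay below both luciferase arrays. The difference from luciferase siRNA was log2 -0.75 ± 0.14 in the combined knockdown (95% interval -1.09 to -0.41) and -0.55 ± 0.14 after H3.Y siRNA (adjusted p = 0.17), and the 2 comparisons share the luciferase arrays. The knockdowns differed from each other by log2 -0.20 ± 0.14 (adjusted p = 0.55, 95% interval -0.53 to 0.14). The pseudogene probe set YWHAQP8, added after its values were seen, read 6.14 and 6.21 in the combined knockdown, 6.43 and 6.63 after H3.Y siRNA and 6.56 and 6.79 after luciferase siRNA. Cross-reading between it and YWHAQ was not tested.

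SFN was highest in the combined knockdown and lowest after H3.Y siRNA. It read 9.78 and 9.82 log2 units in the combined knockdown, 8.40 and 8.68 after H3.Y siRNA, and 9.12 and 8.93 after luciferase siRNA. No arrays of the 3 groups overlapped. The combined knockdown was 2.4-fold above H3.Y siRNA (log2 1.26 ± 0.15, adjusted p = 0.014), a call lost without combined knockdown replicate 1 (adjusted p = 0.12) or replicate 2 (0.097). Relative to luciferase siRNA the combined knockdown differed by log2 0.78 ± 0.15 (95% interval 0.40 to 1.15) and H3.Y siRNA by -0.49 ± 0.15 (adjusted p = 0.24), and neither difference was called. Of 6 epithelial markers, 1, the adhesion protein EPCAM, rose in the combined knockdown relative to luciferase siRNA. There 1.28% of all genes were called higher, each read from its probe set with the highest mean. The means of all 6 were higher there, by as little as log2 0.00 for KRT5. After H3.Y siRNA 0 of 6 were called against luciferase siRNA in limma, at unadjusted p of 0.061 or more, where 0.364% of all genes were called. There 1, KRT19, had a higher mean (log2 0.23). Between the knockdowns 2 of 6 were called, EPCAM (log2 2.46 ± 0.18) and KRT14 (0.86 ± 0.15), at limma adjusted p of 0.0051 and 0.03. Both were higher in the combined knockdown, where 4.05% of all genes were called higher. EPCAM read 7.41 and 7.21 in the combined knockdown, 4.65 and 5.05 after H3.Y siRNA, and 4.97 and 5.14 after luciferase siRNA. KRT14 had means of 6.54 in the combined knockdown, 5.67 after H3.Y siRNA and 6.01 after luciferase siRNA, and E-cadherin (CDH1) had means of 4.87, 4.27 and 4.28 in the same groups. The part of the 6 epithelial markers in the SFN result was not tested. Of the 6 osteoblast and mesenchymal markers, 1, the collagen gene COL1A1, was called in the combined knockdown relative to luciferase siRNA (log2 1.58 ± 0.17, limma adjusted p = 0.019). There 1.28% of all genes were called higher. The means of 5 of the 6 were higher, with SPARC at 1.02, RUNX2 at 0.48, COL1A2 at 0.39 and ALPL at 0.12, and VIM differed by -0.02. Between the knockdowns 2 of the 6, COL1A1 and SPARC, were called higher in the combined knockdown, as were 4.05% of all genes. After H3.Y siRNA 0 of these 6 were called in limma, with COL1A1 alone at an unadjusted p under 0.05 (log2 -0.52).

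YWHAB, YWHAG and YWHAZ did not pass the test in any comparison. YWHAB read 10.03 and 10.11 log2 units in the combined knockdown, 10.19 and 9.97 after H3.Y siRNA, and 10.12 and 10.08 after luciferase siRNA. YWHAZ read 10.53 and 10.53 in the combined knockdown, 10.77 and 10.50 after H3.Y siRNA, and 10.60 and 10.71 after luciferase siRNA. For both genes the H3.Y arrays spanned the values of the other 4, and the 95% intervals of all their differences lay within -0.48 to 0.33. YWHAG read 8.14 and 8.16 in the combined knockdown, 7.89 and 7.80 after H3.Y siRNA, and 8.21 and 7.94 after luciferase siRNA. Its combined knockdown values exceeded those of H3.Y siRNA by log2 0.31 ± 0.14 (adjusted p = 0.33, 95% interval -0.04 to 0.66), and they differed from luciferase siRNA by 0.08 ± 0.14 (95% interval -0.27 to 0.43).

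Set side by side, the fall of YWHAH in the combined knockdown stood beside a lower mean of YWHAQ and a higher mean of SFN, and beside values of YWHAB, YWHAE, YWHAG and YWHAZ whose 95% intervals lay within -0.48 to 0.43 log2 units of luciferase siRNA. In that comparison 1 of 8 family probe sets was called, which is YWHAH itself, where 1.84% of all probe sets were called (0.859% higher and 0.985% lower), and nothing is read from this count because the comparison brought up the family. The median difference of the 7 probe sets other than YWHAH was log2 -0.03, beside 0.001 over all probe sets. After H3.Y siRNA, 1 of 8 was called, a YWHAE probe set that fell, where 0.279% of all probe sets were called, 0.195% lower and 0.0841% higher. All 8 family probe sets, 2 of them of YWHAE, had a negative difference there, with a median of log2 -0.36 beside 0.020 over all probe sets. YWHAB and YWHAZ were at -0.02 and YWHAH at -0.07. With quantile normalization again YWHAB was at 0.05 and YWHAZ at 0.04. The share of all probe sets with a negative difference was not counted. Between the knockdowns, 3 of the 7 probe sets other than YWHAH were called, all higher in the combined knockdown and of 2 genes, YWHAE and SFN, where 4.67% of all probe sets were called, 2.74% higher and 1.92% lower. Without YWHAH, arrays of the combined knockdown and luciferase siRNA did not overlap for 1 higher and 3 lower family probe sets of 7. The shares over all probe sets were 23.4% and 24%. Of these 7, after H3.Y siRNA 0 were higher and 5 lower than luciferase siRNA without overlap, against 21.7% and 20%. Between the knockdowns 4 of the 7 were higher and 1 lower without overlap, against 21.2% and 25.4%. Levels of different probe sets are not on a common scale, so the isoforms were not summed to a total of 14-3-3 transcripts.

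**Figure D2:**
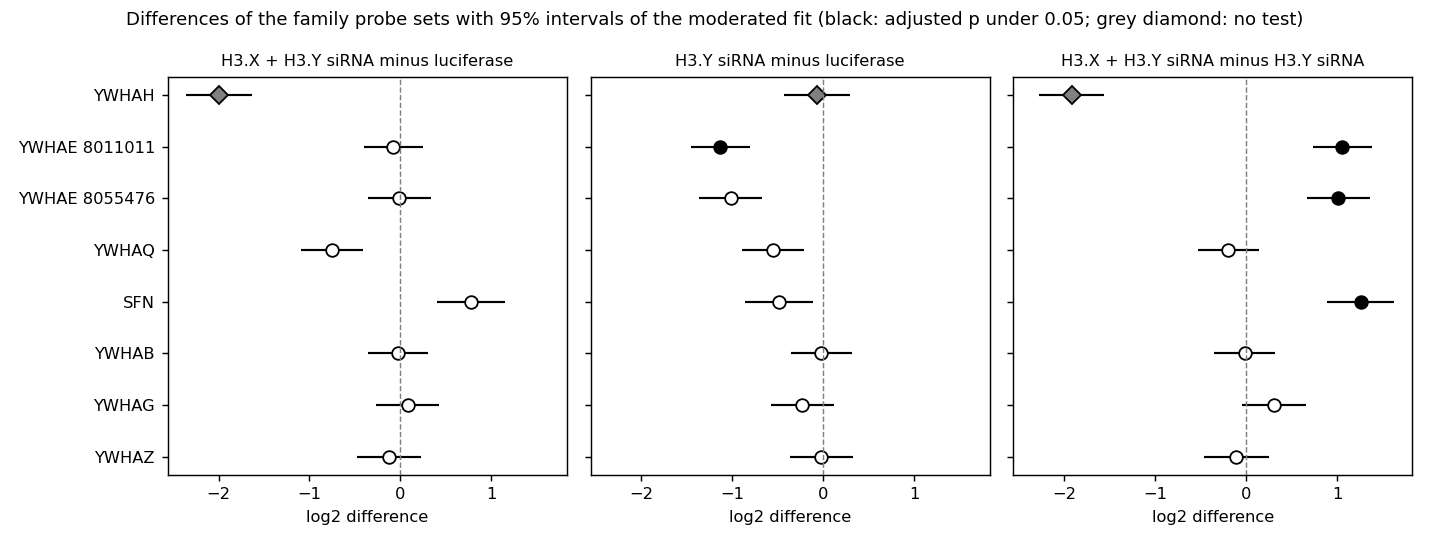
Log2 differences (horizontal axis) of the 8 family probe sets (rows) in the 3 comparisons, with 95% intervals of the moderated fit; black points passed an adjusted p of 0.05, white points did not, and YWHAH is a grey diamond given with no test. YWHAH is at -2.00 in the combined knockdown and -0.07 after H3.Y siRNA, and YWHAE probe set 8011011 is at -0.08 and -1.14.

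Of the 4 genes beside YWHAH on chromosome 22, 0 were called in any comparison, but 3 read below the array medians of 5.10 to 5.14 on every array, where a fall could hardly be seen. The noncoding antisense gene YWHAH-AS1 overlaps YWHAH in RefSeq, and its probe set read 4.00 and 4.18 log2 units in the combined knockdown, 4.04 and 3.34 after H3.Y siRNA, and 4.21 and 3.82 after luciferase siRNA. All 3 groups overlapped there, and the difference between the combined knockdown and luciferase siRNA was log2 0.08 ± 0.26. The difference was 0.10 ± 0.14 for DEPDC5, a subunit of the GATOR complex that restrains mTORC1, 0.25 ± 0.14 for the glucose transporter gene SLC5A1, which lay at 3.07 to 3.44 log2 units on all arrays, and 0.13 ± 0.16 for C22orf42. The limma adjusted p of these 4 genes was 0.45 or more in all 3 comparisons.

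Profiles like that of YWHAH were sought among 2134 probe sets with a mean of at least 5 and a range of at least 1 log2 unit. These had exactly 1 gene symbol and lay outside the family, and unnamed loci, open reading frames and antisense genes were left out. The gene with the nearest profile among them was STT3B, a catalytic subunit of the oligosaccharyltransferase. It read 8.21 and 8.45 in the combined knockdown, 10.31 and 10.52 after H3.Y siRNA, and 10.22 and 10.45 after luciferase siRNA. After each profile was centred on its mean, STT3B lay 0.09 log2 units from YWHAH (root mean square over the 6 arrays, Pearson r = 0.996). The next were METTL2B (0.16, r = 0.995) and METTL2A (0.19, r = 0.995), near-identical tRNA methyltransferase genes whose probe sets may read each other, ENY2 of the SAGA coactivator and of mRNA export (0.16, r = 0.987) and PDCD4, an inhibitor of translation (0.18, r = 0.985). Their differences between the combined knockdown and luciferase siRNA ran from log2 -2.01 for STT3B to -1.63 for METTL2A, and those between H3.Y siRNA and luciferase siRNA from -0.14 for ENY2 to 0.09 for PDCD4. The likeness is a description over 6 arrays that share the group structure.

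**Figure D3:**
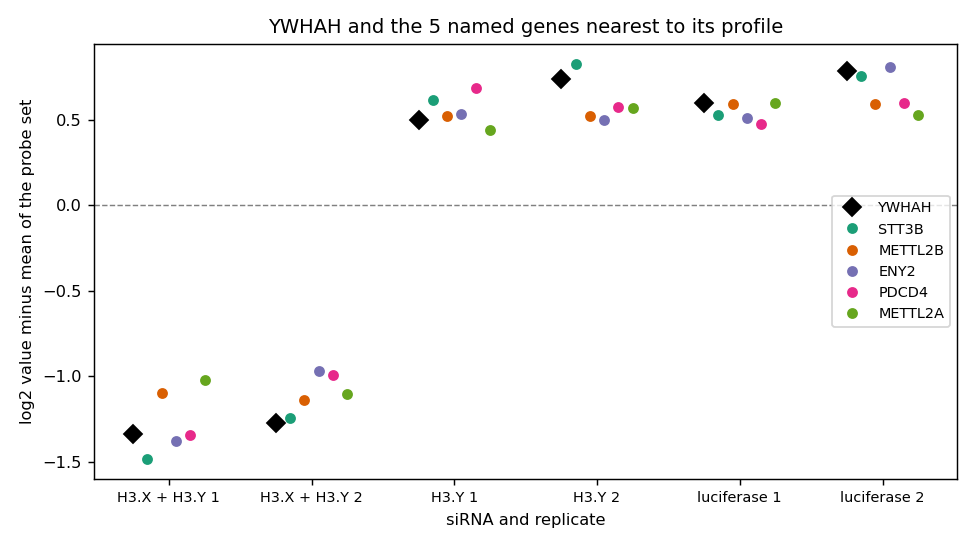
Log2 values of YWHAH (diamonds) and of the 5 named genes nearest to its profile (circles), each minus its own mean over the 6 arrays (vertical axis), by siRNA and replicate (horizontal axis). All 6 genes lie below 0 on both combined knockdown arrays and above 0 on the other 4.

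Genes that act around the 14-3-3 family were read from lists chosen with earlier results of these data known, using for each gene the probe set with the highest mean. Of 37 measured client genes, 1 rose and 0 fell in the combined knockdown relative to luciferase siRNA, where 2.62% of 18417 genes were called (1.28% higher and 1.34% lower). That gene was PFKFB2, a regulator of glycolysis that binds 14-3-3 once phosphorylated, at 7.48 and 7.52 log2 units in the combined knockdown, 6.48 and 6.46 after H3.Y siRNA, and 6.42 and 6.59 after luciferase siRNA. It was 2.05-fold above H3.Y siRNA as well (log2 1.04 ± 0.13, limma adjusted p = 0.015), the 1 client called there, where 6.73% of genes were called (4.05% higher and 2.68% lower). After H3.Y siRNA 0 of 37 clients were called against luciferase siRNA in limma and 7 had an unadjusted p under 0.05, with the cell cycle phosphatase CDC25A at log2 -0.68 ± 0.12 and FOXO4 at 0.54 ± 0.14. The share of all genes at an unadjusted p under 0.05 was not counted. Counts at that threshold, here and below, therefore have no background to be set against. The client median was log2 0.10 in the combined knockdown and -0.02 after H3.Y siRNA, beside 0.010 and 0.015 over all genes.

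Among 20 measured kinases that phosphorylate 14-3-3 binding sites, SGK1 and AKT2 rose in the combined knockdown relative to luciferase siRNA and 0 fell, where 1.28% of all genes were called higher and 1.34% lower. SGK1 read 7.87 and 7.67 log2 units in the combined knockdown, 6.46 and 6.04 after H3.Y siRNA, and 6.34 and 5.99 after luciferase siRNA. Its combined knockdown arrays lay above all others, 3.04-fold above luciferase siRNA (log2 1.60 ± 0.20, limma adjusted p = 0.025) and 2.87-fold above H3.Y siRNA (adjusted p = 0.017). AKT2 exceeded luciferase siRNA by log2 0.89 ± 0.12 in the combined knockdown (limma adjusted p = 0.03). After H3.Y siRNA it was also higher than after luciferase siRNA, by log2 0.45 ± 0.12, but not called (adjusted p = 0.19). The knockdowns differed by log2 0.43 ± 0.12 (adjusted p = 0.12), so the rise of AKT2 was not shown to be particular to the combined knockdown. The kinase count of 2 and the client count of 1 against luciferase siRNA fell to 0 when any 1 of the 4 arrays compared was left out, and the kinase and client counts of 1 between the knockdowns when any 1 combined knockdown array was (the client count also without H3.Y replicate 1). After H3.Y siRNA 0 of 20 kinases were called in limma, where 0.364% of all genes were called (0.103% higher and 0.261% lower). PRKD1 had log2 -0.56 ± 0.13 and PIM1 -0.53 ± 0.14. An unadjusted p under 0.05 in limma was found for 5 kinases, a count without a background share. Of 4 measured regulators of SFN, TRIM25, a ubiquitin ligase that targets SFN for degradation, was 1.72-fold higher in the combined knockdown than after H3.Y siRNA (log2 0.78 ± 0.14, adjusted p = 0.037), where 6.73% of all genes were called. This call was lost with only the 4 arrays compared and without any 1 array other than H3.Y replicate 2. Of the 4 regulators 0 were called against luciferase siRNA in either knockdown, with 2 at an unadjusted p under 0.05 in each, again without a background share. BRCA1 had log2 -1.05 ± 0.24 and DNMT1 -0.37 ± 0.13 in the combined knockdown, and TRIM25 -0.60 ± 0.14 and DNMT1 -0.36 ± 0.13 after H3.Y siRNA.

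Transcripts controlled by 2 groups of 14-3-3 clients were read in the same way. Of 15 FOXO target genes all 15 had a higher mean in the combined knockdown than after luciferase siRNA and 4 rose, where 1.28% of all genes were called higher. Their median was log2 0.57 beside 0.010 over all genes. The list held genes whose rise was known when it was written. Neither its direction nor its counts of called genes, here and in the other comparisons below, are therefore independent evidence. The shares over all genes are no fair background for these counts. TXNIP, which binds thioredoxin and restrains glucose uptake, read 10.84 and 10.93 in the combined knockdown, 8.25 and 8.60 after H3.Y siRNA, and 7.28 and 8.11 after luciferase siRNA. The ubiquitin ligase subunit FBXO32 rose by log2 2.32 ± 0.24, the sestrin SESN3 by 1.62 ± 0.17 and PIK3IP1, an inhibitor of phosphoinositide kinase signalling, by 1.39 ± 0.21 (adjusted p = 0.017, 0.017 and 0.035). After H3.Y siRNA 1 of 15 rose, FBXO32 (log2 2.01 ± 0.24, limma adjusted p = 0.043), where 0.103% of all genes were called higher, and 11 of 15 had a higher mean. SESN3 differed by -0.88 from luciferase siRNA there. SESN3 and TXNIP were 5.64-fold and 5.53-fold higher in the combined knockdown than after H3.Y siRNA (adjusted p = 0.005 and 0.012), where 4.05% of all genes were called higher. This count of 2 was 0 without combined knockdown replicate 1, 1 without replicate 2 and 3 without H3.Y replicate 2. The count of 4 in the combined knockdown became 0 when any 1 of the 4 arrays compared was left out, and the count of 1 after H3.Y siRNA became 0 with only the 4 arrays compared and without any 1 array other than H3.Y replicate 2, and 2 without that one. Of 11 YAP and TAZ target genes 0 were called against luciferase siRNA in limma in either knockdown. An unadjusted p under 0.05 was found for 1 in the combined knockdown and 6 after H3.Y siRNA, counts without a background share. After H3.Y siRNA 8 of 11 had a lower mean, with a median of log2 -0.42 beside 0.015 over all genes, and in the combined knockdown 5 of 11, with a median of 0.07. The number called after H3.Y siRNA was 3, against 0, when probe sets with a mean under 5 were dropped. The same filter raised the count over all probe sets from 93 to 541, so the change is not particular to this list. ANKRD1 had log2 0.83 ± 0.16 in the combined knockdown and 0.88 ± 0.16 after H3.Y siRNA, NT5E had -0.40 ± 0.17 in the combined knockdown, and F3 (tissue factor) had -0.85 ± 0.15 after H3.Y siRNA. Between the knockdowns F3 (log2 0.94 ± 0.15) and the receptor kinase AXL (0.92 ± 0.15) were higher in the combined knockdown (adjusted p = 0.025 and 0.027), where 4.05% of all genes were called higher, a count of 2 that was 1 without H3.Y replicate 2 and 0 without any other single array.

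**Figure D4:**
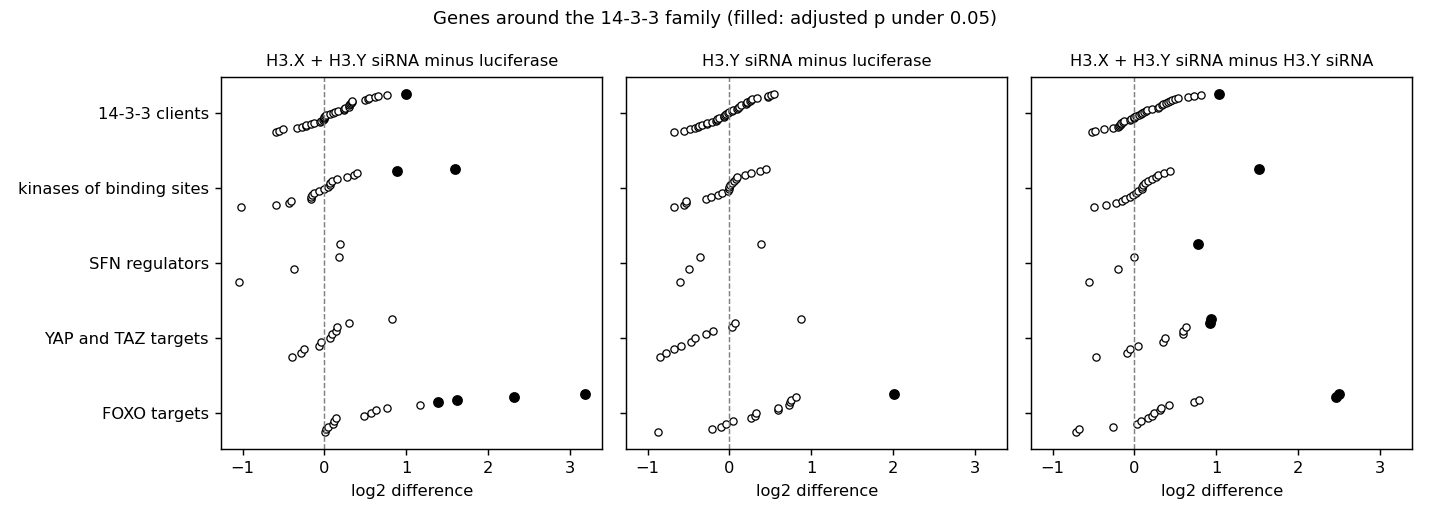
Log2 differences (horizontal axis) of every measured gene in the 5 lists (rows) in the 3 comparisons; black points passed an adjusted p of 0.05. In the first panel all 15 FOXO targets lie at or above 0.01, while the 37 clients run from -0.59 to 1.00.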

How the data were processed

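Total RNA was hybridised to Affymetrix arrays. Each array came with 1 log2 value per probe set, which the authors obtained with oligo from Bioconductor, as the submitters' processing notes name it. Its version, the background step and the build are not given in those notes or the labels. That the base is 2 was taken from the range, 0.687 to 14.0. Array medians lay at 5.10 to 5.14, so values were used as deposited, and a change of all transcripts alike would not be seen. Near-equal medians do not show that the arrays match among bright probe sets, where most of the family lies. No value column was left unused.

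Probe sets were named from the platform annotation (19460 of 33297 with 1 symbol, 1754 with several, 12083 unnamed here), with 19429 symbols taken from RefSeq by Entrez ID (GRCh38.p14). Comparisons used limma 3.58.1 in R 4.3.3 (lmFit, eBayes) on all 6 arrays and all 33297 probe sets with 1 mean per group (3 residual and 3.43 prior degrees of freedom). Two-sided p-values were adjusted within a comparison over all probe sets (Benjamini-Hochberg), and called means below 0.05. The procedure was tested on simulated data. Members and lists were chosen with earlier results of these data known. Named genes were the members, 2 measured neighbours of YWHAH on each side, the 5 genes nearest its profile, and from each list up to 4 called genes, or 2 uncalled ones, by smallest p. The alternatives omitted each array in turn, added the replicate number as a block, fitted the 4 arrays of a comparison alone, repeated quantile normalization, centred each array on its median, dropped probe sets with a mean under 5, or let the variance follow a robust trend.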

Additional observations from a re-analysis of the deposited data

Results flagged for a closer look

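The response of 2 family genes relative to luciferase siRNA differed between the knockdowns, by the test of the difference itself. YWHAE was higher in the combined knockdown than after H3.Y siRNA by log2 1.06 on probe set 8011011 and by 1.01 on probe set 8055476 (limma adjusted p = 0.016 and 0.02), in 2 of 2 arrays against both H3.Y arrays. SFN was higher by log2 1.26 (adjusted p = 0.014), again in 2 of 2 arrays. Its combined knockdown arrays lay above both luciferase arrays and its H3.Y arrays below both. The calls of both genes were lost without either combined knockdown array, and the 2 YWHAE probe sets may not be separate readings.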

How the results depend on the processing

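With 2 arrays per group the counts of calls depended on the fit. Over the 12 alternatives YWHAE probe set 8011011 after H3.Y siRNA ran between log2 -1.24 and -1.03 against luciferase siRNA. In the combined knockdown against luciferase siRNA, the family count of 1, which is YWHAH, for which the family was chosen, became 3 with the filter on dim probe sets and with the variance trend, when YWHAQ and SFN passed, and was 0 to 1 when 1 array was left out, at 0 without either luciferase or either combined knockdown array. The count over all probe sets, 614, became 1389 with the filter, 924 with the trend, and 0 to 644 with 1 array left out. After H3.Y siRNA the family count of 1 became 0 with the replicate block and with only the 4 arrays compared, 2 with the filter and with the trend, when both YWHAE probe sets passed, and 0 to 1 with 1 array left out, at 1 without H3.Y replicate 2 alone. The count over all probe sets, 93, became 0 with only the 4 arrays compared, 541 with the filter, 209 with the trend and 0 to 629 with 1 array left out. Between the knockdowns the family count of 4 was 0 to 4 with 1 array left out, at 0 without either combined knockdown array, and the count over all probe sets, 1554, became 448 with only the 4 arrays compared, 2540 with the filter and 12 to 1641 with 1 array left out. A lone array left in a group is assumed to vary like the other groups. The filter tests fewer probe sets and omissions use fewer arrays; the cause of the other shifts was not tested.

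Members near 0 changed sign. With quantile normalization again, YWHAB gave log2 0.08 in the combined knockdown and 0.05 after H3.Y siRNA against luciferase siRNA, and 0.03 between the knockdowns. YWHAE gave 0.04 and 0.05 in the combined knockdown on its 2 probe sets, and YWHAZ 0.04 after H3.Y siRNA. Members far from 0 shifted too. In the combined knockdown against luciferase siRNA every family probe set moved upward, YWHAQ from -0.75 to -0.64 and SFN from 0.78 to 0.86. With 1 array left out, YWHAB ran from -0.07 to 0.01 in the combined knockdown, from -0.13 to 0.09 after H3.Y siRNA and from -0.13 to 0.10 between the knockdowns. YWHAE probe set 8055476 ran from -0.06 to 0.04 and YWHAG from -0.05 to 0.21 in the combined knockdown, YWHAH from -0.19 to 0.05 and YWHAZ from -0.16 to 0.12 after H3.Y siRNA, and YWHAZ from -0.24 to 0.03 between the knockdowns. Of the gene lists, FOXO targets called in the combined knockdown numbered 4 to 5 over the fits of all arrays or of the 4 compared, and 0 to 4 with 1 array left out. After H3.Y siRNA the FOXO count of 1 became 0 with the replicate block, 0 with only the 4 arrays compared and 2 with the filter, and between the knockdowns the count of 2 became 5 with the filter. With the filter the YAP and TAZ count became 3 after H3.Y siRNA, against 0, and the client count became 4 between the knockdowns, against 1. The filter also raised the counts over all probe sets in these 2 comparisons, to 541 and 2540. Between the knockdowns the YAP and TAZ count of 2 and the SFN regulator count of 1 became 0 with only the 4 arrays compared. Arrays that share a replicate number deviated from their group means with correlations of 0.122 to 0.28 between groups, over 2 numbers only, and the labels tie no batch to a number, so the samples share only a number. The replicate block changed 1 family call, YWHAE probe set 8011011 after H3.Y siRNA (adjusted p = 0.055), and left the family counts of the other 2 comparisons at 1 and 4.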
